A study of Mus musculus with 20 samples.

Results

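The genes described here are 10 genes of the myostatin, activin and transforming growth factor beta (TGF-beta) pathway, chosen by their symbols from the 26722 genes of the count table. They are the ligands Mstn, Gdf11, Inhba, Tgfb1, Tgfb2 and Tgfb3, the follistatin-type proteins Fst and Fstl1, and the receptors Acvr2a and Acvr2b. Total RNA was sequenced from C2C12 cells, a mouse myoblast line that fuses into myotubes, after 5 days of differentiation in low serum and 16 h of treatment. The study set activation of muscle-specific kinase (MuSK), the receptor tyrosine kinase of the neuromuscular synapse, beside its inhibition. The control received 7.7 nM of the negative control antibody b12 as a human IgG4, and a second group received 7.7 nM of 13-3B5 IgG4, an antibody that activates MuSK. The remaining 3 groups all received 0.1 nM neural agrin, the natural activator, together with 7.7 nM of an antibody, which was b12 in the group called agrin here and 13-3B5xb12 or 11-3F6xb12 in the others. According to the labels, 13-3B5xb12 and 11-3F6xb12 are monovalent for MuSK and inhibit it. Every culture therefore received an antibody, and there is no culture without one. Each group had 4 libraries labelled as biological replicates, 20 in all, and p-values measure the spread between these libraries. All cells came from 1 cell line, with no nerve and no donor variation.

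Myostatin, its close relative GDF11 and the activins are secreted dimers that bind the type II receptors ActRIIA and ActRIIB, encoded by Acvr2a and Acvr2b. A type I receptor is then phosphorylated, and Smad2 and Smad3 carry the signal to the nucleus. In skeletal muscle this pathway limits growth, and follistatin, encoded by Fst, binds activins and myostatin outside the cell and keeps them from their receptors. The TGF-beta ligands are secreted in a latent form, use their own receptors and reach the same Smad proteins. In muscle cultures they are known for holding back differentiation and for raising matrix genes.

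Total counts ran from 18424881 to 23343903 per library. Values are CPM, counts scaled to a common library total with TMM factors, or FPKM, which is CPM divided by exon length in kilobases, where genes are compared with each other. Markers of myotubes were present in every library, with 8 of 8 listed markers detected and a summed level of 10358 to 14627 CPM. Summed markers of undifferentiated muscle cells lay between 129 and 165 CPM. Summed fibroblast markers lay between 3875 and 4959 CPM, with Thy1 close to 0. The largest parts of this sum were Col3a1 and Dcn, at means of 3635 and 849 CPM. Col1a1, Pdgfra and Lum stood at 31.7, 16.7 and 8.13 CPM. The agrin library of replicate 3 held 9.07 CPM of liver transcripts (Alb and 4 others), and the other 19 libraries held at most 0.254 CPM. The called results, and the comparisons in which this library takes part and a gene is named, are also given without it.

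Mstn, the gene of myostatin, was at the detection limit in these myotubes. It had 0 counts in 19 of 20 libraries and 3 counts, 0.139 CPM, in the control library of replicate 2. A count of 0 allows a level of up to 0.125 to 0.161 CPM, depending on the library, so Mstn was not detectable at this depth and was not tested. The gene lies at chr1:53061640-53068079 on the plus strand of GRCm38. Gdf11, at chr10:128882295-128891718 on the minus strand, encodes the closest relative of myostatin. It was detected in every library with 415 to 654 counts, a level of 25.0 ± 2.04 CPM (SD, n = 20).

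Because the products of Mstn and Gdf11 are so alike, a stretch of their last coding exon is shown to make clear which gene a read comes from. The stretches below are aligned 90-base pieces of coding exon 3 from GENCODE M21 on GRCm38, at chr1:53066274-53066363 on the plus strand and chr10:128885374-128885463 on the minus strand. Both are written 5′ to 3′ in the direction of the gene, and capitals mark the 25 positions at which the pair differ.
Mstn: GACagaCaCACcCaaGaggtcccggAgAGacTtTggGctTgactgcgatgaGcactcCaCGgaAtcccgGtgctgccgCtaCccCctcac
Gdf11: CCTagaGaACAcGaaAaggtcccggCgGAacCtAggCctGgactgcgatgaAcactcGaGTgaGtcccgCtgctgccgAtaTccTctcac
Over the 378 coding bases of this exon the identity was 72.5%, and the longest run shared by the exons was 11 bases. Any window of 150 bases, the length of a read, held at least 32 mismatches. The counts of Mstn and Gdf11 can therefore be read as separate measurements.

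The promoters of this pair are shown because the genes stand so far apart in level while sharing a short block of letters. The RefSeq promoter table (GRCm38.p6) holds windows around the annotated start for 8 of the 10 genes. The pieces below lie at chr1:53061563-53061628 on the plus strand and chr10:128891878-128891943 on the minus strand. Capitals mark, in this order, a CCAAT match, the 10-base run CTGACGACAC that both promoters hold, and a TATAAA match.
Mstn: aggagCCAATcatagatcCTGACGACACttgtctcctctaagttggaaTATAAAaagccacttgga
Gdf11: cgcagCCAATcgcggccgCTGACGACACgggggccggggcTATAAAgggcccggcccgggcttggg
In both promoters 8 bases separate CCAAT from the shared run. The run is followed by TATAAA after 20 bases in Mstn and after 12 bases in Gdf11. It starts 59 bases before the annotated start of Mstn and 207 bases before that of Gdf11. Of 32851 promoter windows in the table, searched on both strands, 12 (0.0365%) held CTGACGACAC, 33.8% held CCAAT and 12.4% held TATAAA. These matches describe letters only.

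Per exon length, the most abundant of the 10 transcripts was that of Fstl1, a secreted follistatin-like glycoprotein, at 114 ± 7.25 FPKM (SD, n = 20 libraries here and for the next genes). Tgfb3, the gene of TGF-beta 3, followed at 40.0 ± 4.36 FPKM and Fst at 19.8 ± 3.28 FPKM. The ranges of these 3 genes over the 20 libraries did not overlap with each other or with that of any other gene of the set. Acvr2a at 7.97 ± 0.88 FPKM and Gdf11 at 6.15 ± 0.50 FPKM were neighbours whose ranges overlapped. The same held for Inhba, which encodes the beta A subunit of activin A, at 2.73 ± 0.59 FPKM and Tgfb2 at 2.21 ± 0.46 FPKM. It held again for Tgfb1 at 0.577 ± 0.18 FPKM and Acvr2b at 0.276 ± 0.097 FPKM. Within each of these 3 pairs the order of the levels is not separated by the spread between libraries.

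Among the TGF-beta isoforms, Tgfb3 made up 93.4% ± 1.31 of the summed FPKM (SD, n = 20). Tgfb2 made up 5.21% ± 1.12 and Tgfb1, the isoform best known from fibrosis, 1.36% ± 0.445. The share of Tgfb3 lay between 90.4% and 95.6% in every library. Among the activin genes, Inhbb, which encodes the beta B subunit and lies outside the 10 genes, stood at 25.5 FPKM, above Inhba. Between the type II receptors, Acvr2a exceeded Acvr2b by a median of 33.1-fold per length, with a range of 18.0 to 53.4 over the libraries. The counts behind Acvr2b were only 12 to 43 per library, so its single values are imprecise. Fst exceeded Inhba per length by a median of 7.52-fold, with a range of 4.27 to 11.7, and its ratio to Inhbb had a median of 0.753, with a range of 0.559 to 1.11.

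**Figure D1:**
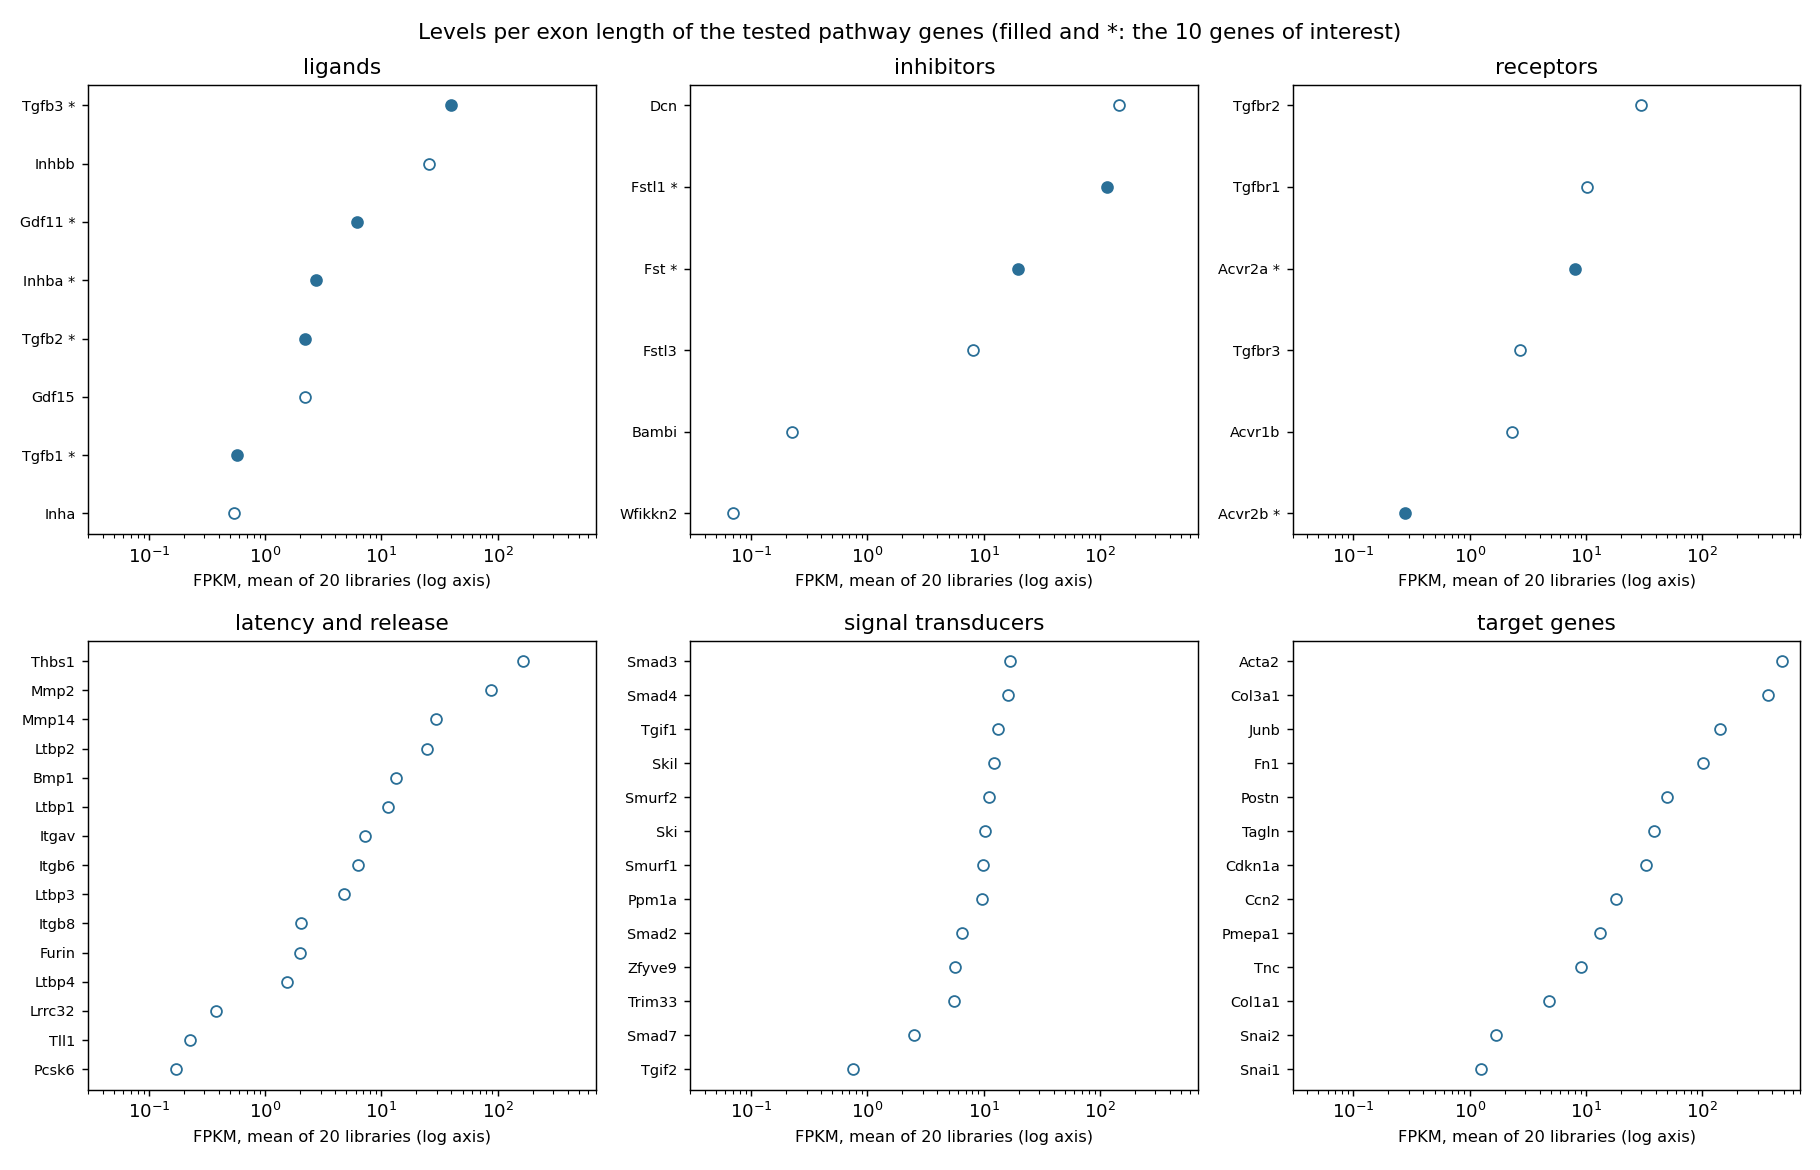
Mean level per exon length (FPKM, log axis, 20 libraries) of each tested pathway gene, one panel for each role; filled points with an asterisk are 9 of the 10 genes, Mstn being too low to test. Tgfb3 leads the ligands at 40.0 FPKM, and Acvr2b is the lowest receptor at 0.276 FPKM. Fstl1, at 114 FPKM, is drawn in the panel of inhibitors as a follistatin-like gene, and its action on these ligands was not measured. 1 target gene is not drawn.

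The first comparison asked whether any of the genes differed between the 5 treatments. None did: 0 of 9 tested genes passed an adjusted p-value of 0.05 in edgeR's quasi-likelihood test over all treatments, against 0 of 14605 genes (0%). At an unadjusted p under 0.05 the counts were 0 of 9 genes and 329 of 14605 (2.25%), and the likelihood ratio test of DESeq2 also called none of the 9. In the 8 comparisons between pairs of treatments, 0 of 9 genes were called in each, as were 0 of 14605 (0%) in each. These comparisons share groups: 4 of them are against the same control libraries and 3 against the same agrin libraries. The 72 log2 fold changes had a median size of 0.10 and a largest size of 0.41, beside a median standard error (SE) of 0.16. Of these, 1 had an unadjusted p under 0.05. Over all genes, the share with such a p was 2.85% for agrin, 2.77% for 13-3B5, 2.39% for agrin plus 13-3B5xb12 and 3.25% for agrin plus 11-3F6xb12 against control. Against agrin it was 2.39% for 13-3B5, 3.83% for agrin plus 13-3B5xb12 and 3.33% for agrin plus 11-3F6xb12, and between the last 2 groups it was 4.22%. The smallest adjusted p among them was 0.992.

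Of the ligands, Inhba had the only value of the 72 with an unadjusted p under 0.05. In the control it was at 19.9, 29.6, 16.6 and 13.0 CPM in replicates 1 to 4. With 13-3B5 it was at 12.2, 18.0, 15.9 and 13.4 CPM. The control library of replicate 2 was the highest of all 20, and the remaining control values overlapped with those under 13-3B5. The log2 fold change of 13-3B5 against control was -0.41 (SE 0.18, unadjusted p = 0.0289, edgeR adjusted p = 0.999). Within replicates 1 and 2 the value was -0.71 (SE 0.20) and within replicates 3 and 4 it was -0.01 (SE 0.20). Leaving out 1 library at a time moved it between -0.57 and -0.15, the latter without the control library of replicate 2. In the agrin group Inhba was at 15.5, 17.4, 22.8 and 15.8 CPM, and in the groups given agrin with 13-3B5xb12 or 11-3F6xb12 it lay between 15.6 and 17.6 and between 16.7 and 19.7 CPM.

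None of the other ligands was called between treatments. Gdf11 had its smallest p for agrin plus 13-3B5xb12 against control, at a log2 fold change of 0.17 (SE 0.10, unadjusted p = 0.0902, edgeR adjusted p = 0.9995), with means of 26.2 ± 2.91 and 23.3 ± 1.82 CPM (SD, n = 4 each). Tgfb3 had its smallest for agrin plus 11-3F6xb12 against control, at 0.14 (SE 0.10). Tgfb2 had its smallest for 13-3B5 against agrin, at 0.19 (SE 0.20; 0.22, SE 0.22, without the agrin library of replicate 3). Tgfb1 had its smallest for agrin plus 11-3F6xb12 against agrin plus 13-3B5xb12, at -0.40 (SE 0.32). Tgfb1 rested on 38 to 113 counts per library.

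Fst, the follistatin gene, had its highest group mean with agrin plus 11-3F6xb12, where its level in replicates 1 to 4 was 115, 107, 97.1 and 85.7 CPM. With agrin plus 13-3B5xb12 the values were 106, 80.0, 71.0 and 76.1 CPM. In the agrin group they were 95.5, 99.6, 77.3 and 78.9 CPM. Within each replicate number the value with 11-3F6xb12 was the highest of the 3 agrin groups, but the groups overlapped. The control values were 113, 90.8, 75.2 and 68.3 CPM, and those under 13-3B5 were 103, 111, 77.8 and 84.7 CPM. The log2 fold change of agrin plus 11-3F6xb12 against agrin plus 13-3B5xb12, antibodies given at the same dose and time, was 0.28 (SE 0.16, unadjusted p = 0.0972). It was 0.25 (SE 0.11) within replicates 1 and 2 and 0.31 (SE 0.11) within replicates 3 and 4. With the replicate number as a block it was 0.29 (SE 0.08, unadjusted p = 0.000943, edgeR adjusted p = 0.344), and 6.19% of all genes then had an unadjusted p under 0.05. The difference was not called in either fit.

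For the follistatin-like gene Fstl1 no treatment mean left the range of 546 to 577 CPM, and its largest difference by p was -0.08 (SE 0.08) for 13-3B5 against agrin. Among the receptors, Acvr2a had its smallest p for agrin plus 11-3F6xb12 against agrin, at 0.15 (SE 0.10). Acvr2b had its smallest for 13-3B5 against agrin, at -0.26 (SE 0.45). Without the agrin library of replicate 3 these values were -0.05 for Fstl1, 0.16 for Acvr2a and -0.18 for Acvr2b. In the 7 comparisons with control or agrin as the reference, 0 of 9 genes had groups without overlap. Of all genes, 1.72%, 1.88%, 1.64% and 2.16% did so for agrin, 13-3B5, agrin plus 13-3B5xb12 and agrin plus 11-3F6xb12 against control, and 2.38%, 2.31% and 2.9% for the last 3 of these against agrin. The standard errors of this fit include the differences between replicates 1 and 2 and replicates 3 and 4 described next. With the replicate set as a covariate, the SE of the Fst comparisons was 0.08. Of the 9 genes, Fst alone then had an unadjusted p under 0.05 over all treatments, beside 4.17% of all genes. That p was 0.00821 (edgeR adjusted p = 0.999). In that fit Fst with agrin plus 11-3F6xb12 was at 0.24 against control (unadjusted p = 0.00534, edgeR adjusted p = 0.919) and at 0.21 against agrin (unadjusted p = 0.0126, edgeR adjusted p = 0.899). Without the agrin library of replicate 3, in the fit by treatment alone, the value against agrin was 0.15 (SE 0.17). A test that is not passed does not show that the treatments acted alike.

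**Figure D2:**
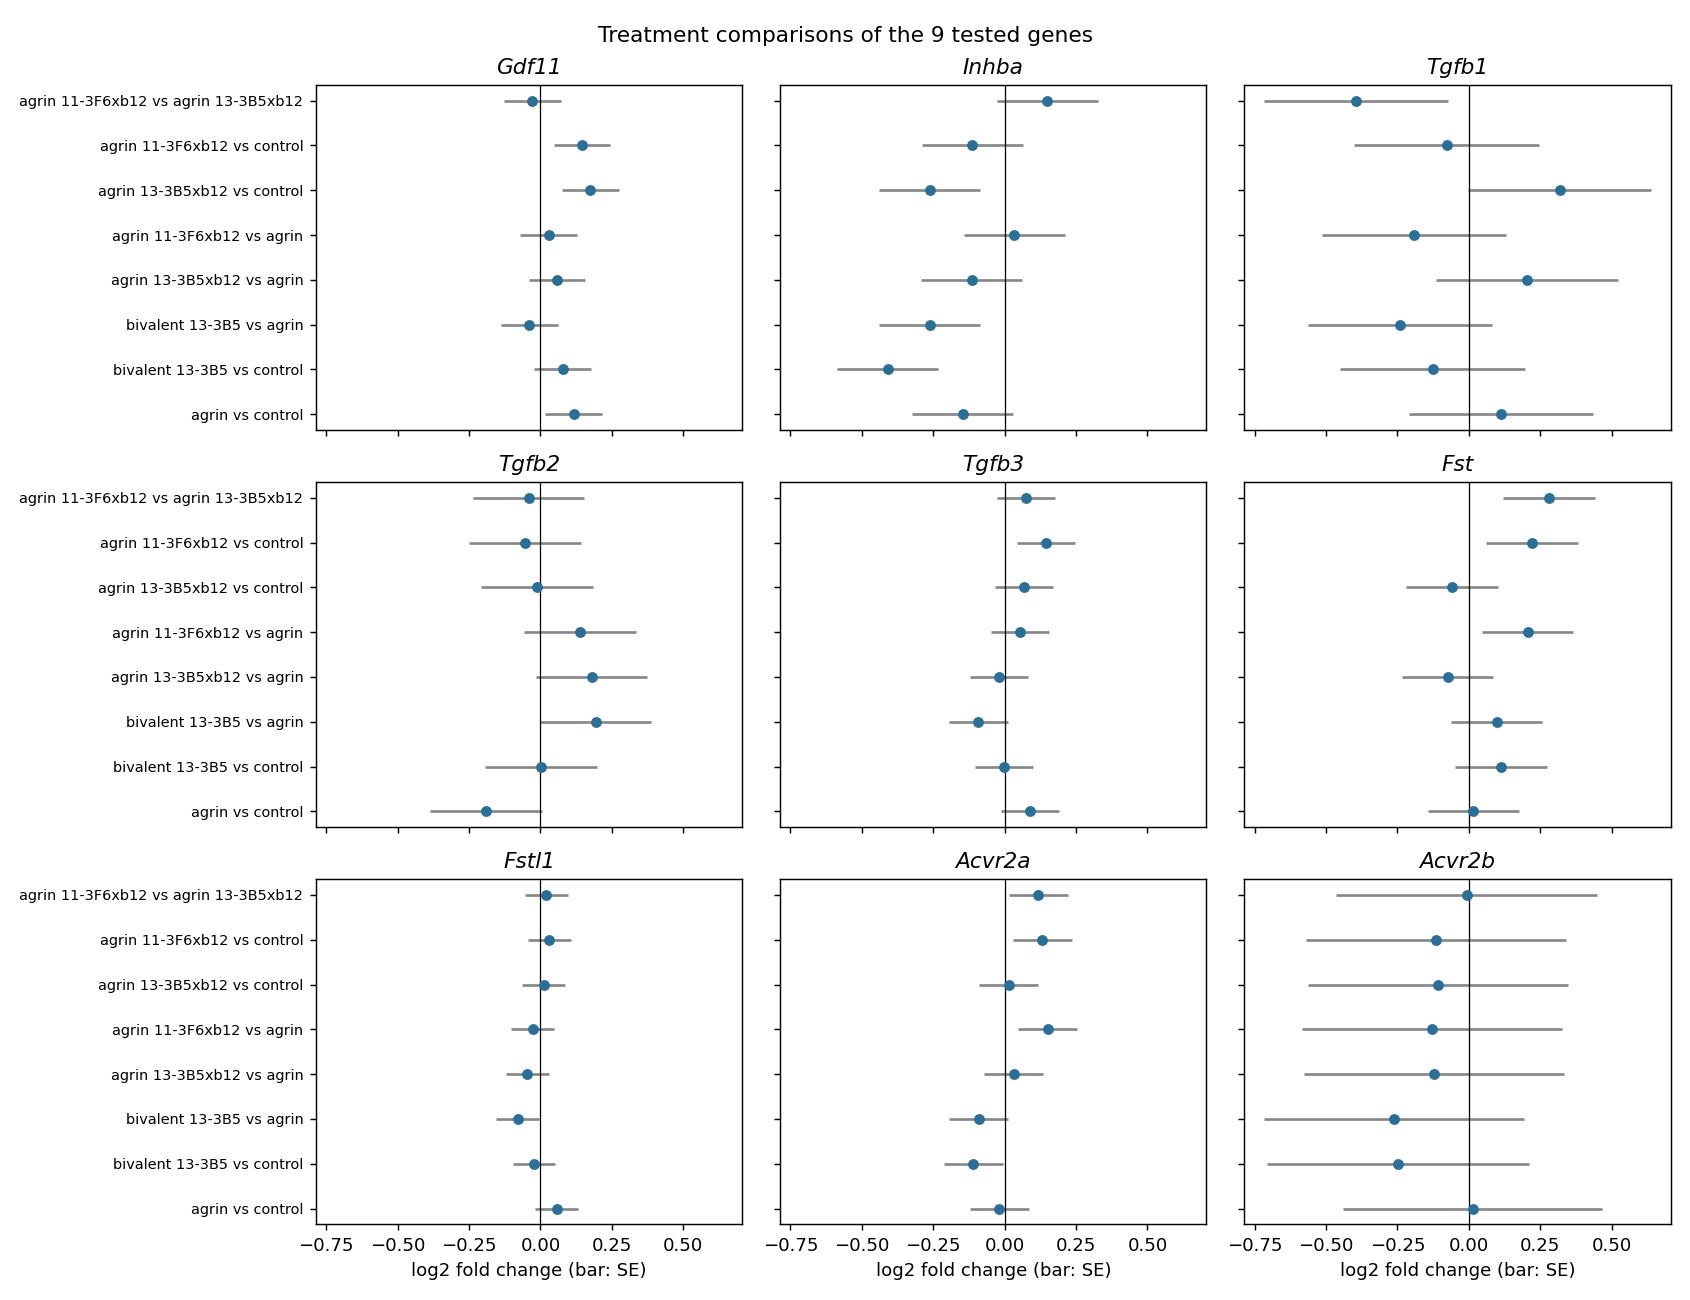
Log2 fold change (x axis) of each of the 9 tested genes in the 8 comparisons between treatments (rows; bars, SE; 4 libraries a group). Most values lie within 1 or 2 SE of 0, the largest is -0.41 for Inhba with 13-3B5 against control, and the bars of Tgfb1 and Acvr2b are the widest.

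The second comparison set replicates 3 and 4 against replicates 1 and 2, with 10 libraries on each side and 2 of every treatment in each. What these replicate numbers stand for beyond their count is not given in the labels. The split was proposed because earlier results of these same data showed it as the main axis of variation between libraries. Its p-values and counts of called genes therefore describe these libraries and are no independent evidence for the split. Of all genes, 1908 of 14605 (13.1%) differed, 1042 of them lower (7.13%) and 866 higher (5.93%) in replicates 3 and 4, with a median log2 change of 0.01. Of the 9 tested genes 3 differed, Fst, Tgfb3 and Acvr2a, and each was lower in replicates 3 and 4. The median over the 9 genes was -0.11. In bulk RNA, fewer cells of a type and less RNA per cell cannot be told apart.

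Fst had the clearest difference. In replicates 1 and 2 its lowest, median and highest values were 80.0, 104 and 115 CPM, and in replicates 3 and 4 they were 68.3, 77.6 and 97.1 CPM. Of the 10 libraries of replicates 3 and 4, 7 lay below the lowest of replicates 1 and 2, and within each of the 5 treatments both libraries of replicates 3 and 4 lay below both of replicates 1 and 2. Of all genes, 330 (2.26%) were lower without overlap in all 5 treatments in the same way. The means were 102 ± 10.9 and 79.2 ± 8.22 CPM (SD, n = 10), a log2 fold change of -0.37 (SE 0.05, edgeR adjusted p = 1.16e-06). Within single treatments the change ran from -0.51 in the control to -0.28 with agrin plus 11-3F6xb12, and of these 5 values the one in the control passed the test on its own (edgeR adjusted p = 0.0106).

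Tgfb3 had a lowest, median and highest value of 124, 144 and 163 CPM in replicates 1 and 2 and of 109, 126 and 149 CPM in replicates 3 and 4. The 149 CPM belong to the agrin library with liver transcripts. Both libraries of replicates 3 and 4 lay below both of replicates 1 and 2 in 3 of 5 treatments, the control and the groups with 13-3B5xb12 and 11-3F6xb12. How many of all genes did so in 3 treatments was not counted. The means were 145 ± 11.6 and 126 ± 10.9 CPM (SD, n = 10), a log2 fold change of -0.21 (SE 0.05, edgeR adjusted p = 0.00234). The call was lost without replicate 4 (edgeR adjusted p = 0.0744). Within single treatments the change was largest in the control, at -0.42 (SE 0.10, edgeR adjusted p = 0.0137), the only treatment in which it was called on its own. It was -0.21 with agrin plus 13-3B5xb12 and -0.29 with agrin plus 11-3F6xb12. Within 13-3B5 and within agrin it was -0.06 (SE 0.10 in each). Without the agrin library of replicate 3 the change in Tgfb3 was -0.24 (edgeR adjusted p = 0.000201), and those of Fst and Acvr2a were -0.37 and -0.22, all still called.

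Acvr2a, the more abundant type II receptor, ran from 42.2 to 55.5 CPM with a median of 48.7 CPM in replicates 1 and 2, and from 35.1 to 48.2 CPM with a median of 42.0 CPM in replicates 3 and 4. The sets were apart in 4 of 5 treatments and overlapped in the agrin group. How many of all genes were apart in 4 treatments was not counted, so this describes the libraries only. The means were 48.4 ± 4.46 and 42.3 ± 3.48 CPM (SD, n = 10), a log2 fold change of -0.20 (SE 0.05, edgeR adjusted p = 0.0104). This call depended on single replicate numbers. Without replicate 1 the change was -0.11 (edgeR adjusted p = 0.372), and the call was also lost without replicate 3 (adjusted p = 0.104) or replicate 4 (adjusted p = 0.0692). Genes on the opposite strand overlap the ends of Acvr2a (Orc4, up to 1577 counts) and Tgfb3 (Ttll5, up to 939 counts), and whether the counting used strand is not given in the sources used here.

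The remaining 6 genes were not called. Fstl1 changed by -0.03 (SE 0.04) and Gdf11 by 0.01 (SE 0.06) on the log2 scale, both less than 1 SE. Inhba had a value of -0.15 (SE 0.11), Acvr2b of -0.11 (SE 0.30) and Tgfb1 of 0.09 (SE 0.20). Within the control alone Inhba passed the test, at -0.74 (SE 0.20, edgeR adjusted p = 0.0399), with the library at 29.6 CPM on the side of replicates 1 and 2. Tgfb2 had a positive value, 0.18 (SE 0.12, edgeR adjusted p = 0.356). Its values ran from 9.11 to 18.7 CPM, with a median of 10.6 CPM, in replicates 1 and 2 and from 11.1 to 16.6 CPM, with a median of 13.2 CPM, in replicates 3 and 4. The 2 highest values of replicates 1 and 2 were those of the agrin plus 13-3B5xb12 library of replicate 1 (18.7 CPM) and the control library of replicate 2 (16.2 CPM). The same 2 libraries had the highest Acvr2b, at 1.96 and 1.81 CPM. Without these 2 libraries Tgfb2 was called higher in replicates 3 and 4, at 0.37 (SE 0.09, edgeR adjusted p = 0.00284).

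The ratio of Fstl1 to Fst per length had a median of 5.35 in replicates 1 and 2 and of 6.67 in replicates 3 and 4. The share of Tgfb3 in the summed TGF-beta FPKM was 94.2% ± 1.09 in replicates 1 and 2 and 92.6% ± 0.983 in replicates 3 and 4 (SD, n = 10). That of Tgfb2 was 4.53% ± 0.918 and 5.90% ± 0.880. These ratios were not tested.

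**Figure D3:**
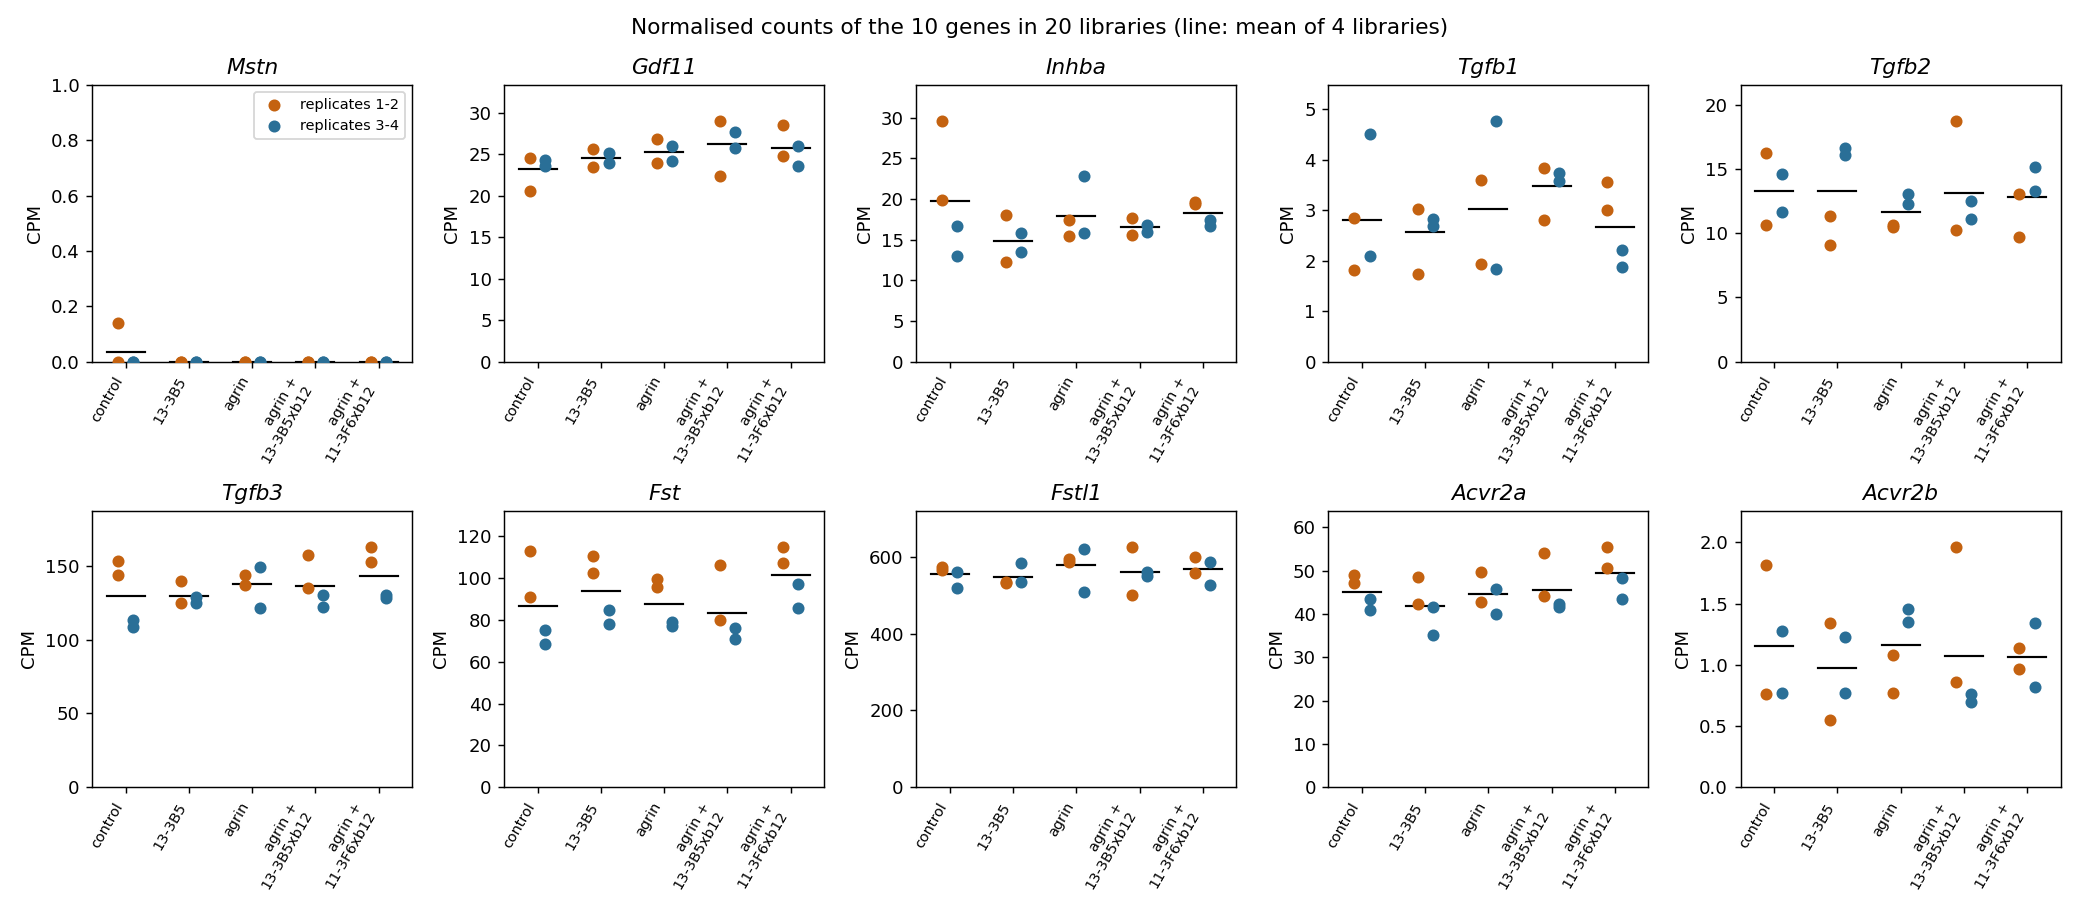
CPM (y axis, from 0) of each of the 10 genes in the 20 libraries by treatment; orange points are replicates 1 and 2, blue points replicates 3 and 4, lines the means of 4 libraries. The blue points of Fst lie below the orange ones in all 5 treatments, those of Acvr2a in 4, and Mstn is at 0 except for 0.139 CPM in 1 control library.

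Some cell type markers and the mitochondrial share of counts also differed between these sets of replicates. Of all genes 13.1% were called, so the small counts of called markers below are a description and show no shift of a cell type. Summed myotube markers had a median of 13202 CPM in replicates 1 and 2 (12659 to 14627) and of 11745 CPM in replicates 3 and 4 (10358 to 13537), and 2 of 8 markers, Ckm and Tnnt3, passed the test, both lower. Summed fibroblast markers, made up mainly of Col3a1 and Dcn, ran from 4477 to 4959 CPM and from 3875 to 4733 CPM. Of 5 tested markers, 3 were called lower, Col1a1, Col3a1 and Lum. Pdgfra, at -0.26 (SE 0.10), and Dcn, at 0.08 (SE 0.05), were not called. Undifferentiated-cell markers ran from 129 to 158 CPM and from 132 to 165 CPM, and 1 of 6, Cd34, passed the test and was higher in replicates 3 and 4, at 0.27 (SE 0.06, edgeR adjusted p = 0.000724). Mitochondrial transcripts took a median of 34.6% of counts in replicates 1 and 2 and 30.0% in replicates 3 and 4. The part of these differences in the results for Fst, Tgfb3 and Acvr2a was not tested.

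Beyond the 10 genes, the list of the pathway holds 67 further genes, 53 of which could be tested. Of these, 17 (32.1%) differed between the replicate sets, 6 higher and 11 lower in replicates 3 and 4, beside 13.1% of all genes. The median log2 change over all 62 tested genes of the list was -0.01, beside 0.01 over all genes. Between treatments, 0 of the 62 were called and 1 had an unadjusted p under 0.05 in the test over all treatments. The list was chosen with results of these data known, so its counts are a description.

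Among the ligands, Inhbb was lower in replicates 3 and 4 together with Tgfb3, so that 2 of 8 tested ligands were called. Inhbb stood at 120 ± 9.80 CPM in replicates 1 and 2 and at 97.1 ± 11.9 CPM in replicates 3 and 4 (SD, n = 10), a log2 fold change of -0.30 (SE 0.05, edgeR adjusted p = 0.000119). Of 6 tested genes listed as inhibitors, Fstl1 among them, Fst was the only one called. Fstl3, a follistatin relative that also binds activins and myostatin, had a value of 0.22 (SE 0.09, edgeR adjusted p = 0.0965). Of 6 tested receptors Acvr2a was the only one called. For inhibitors and receptors alike this is 16.7%, near the 13.1% of all genes. The TGF-beta type II receptor gene Tgfbr2 changed by 0.00 (SE 0.04), and the type I receptor gene Tgfbr1 by -0.11 (SE 0.05, edgeR adjusted p = 0.175).

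Genes that hold TGF-beta latent or release it changed in both directions, 2 higher and 4 lower among 15 tested. The latent TGF-beta binding protein genes Ltbp2 and Ltbp1 were higher in replicates 3 and 4, by 0.33 and 0.20 on the log2 scale. The gene of the tolloid-like protease Tll1 was lower by the largest amount, at -1.63 (SE 0.28), from 2.62 ± 0.94 to 0.879 ± 0.49 CPM (SD, n = 10). The integrin subunit gene Itgb8, whose product helps activate latent TGF-beta, changed by -0.27. Of the signal transducers, 1 of 13 was called: Ski, a co-repressor of Smad complexes, at 0.18 (SE 0.06, edgeR adjusted p = 0.0372). The Smad genes on the list, Smad2, Smad3, Smad4 and Smad7, were not called.

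Of 14 tested target genes 9 were called, 3 higher and 6 lower in replicates 3 and 4. Junb had the smallest p and was higher, at a log2 fold change of 0.20 (SE 0.04, edgeR adjusted p = 0.00024). Among the next by p were Tnc, Col3a1 and Postn, which encode matrix proteins. They were all lower, with log2 fold changes of -0.71, -0.16 and -0.18. Col3a1 stood at 3834 ± 203 CPM in replicates 1 and 2 and at 3437 ± 209 CPM in replicates 3 and 4 (SD, n = 10, edgeR adjusted p = 0.0030). The others called higher were Snai1 and Cdkn1a. Col3a1 and Col1a1 are also on the list of fibroblast markers.

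**Figure D4:**
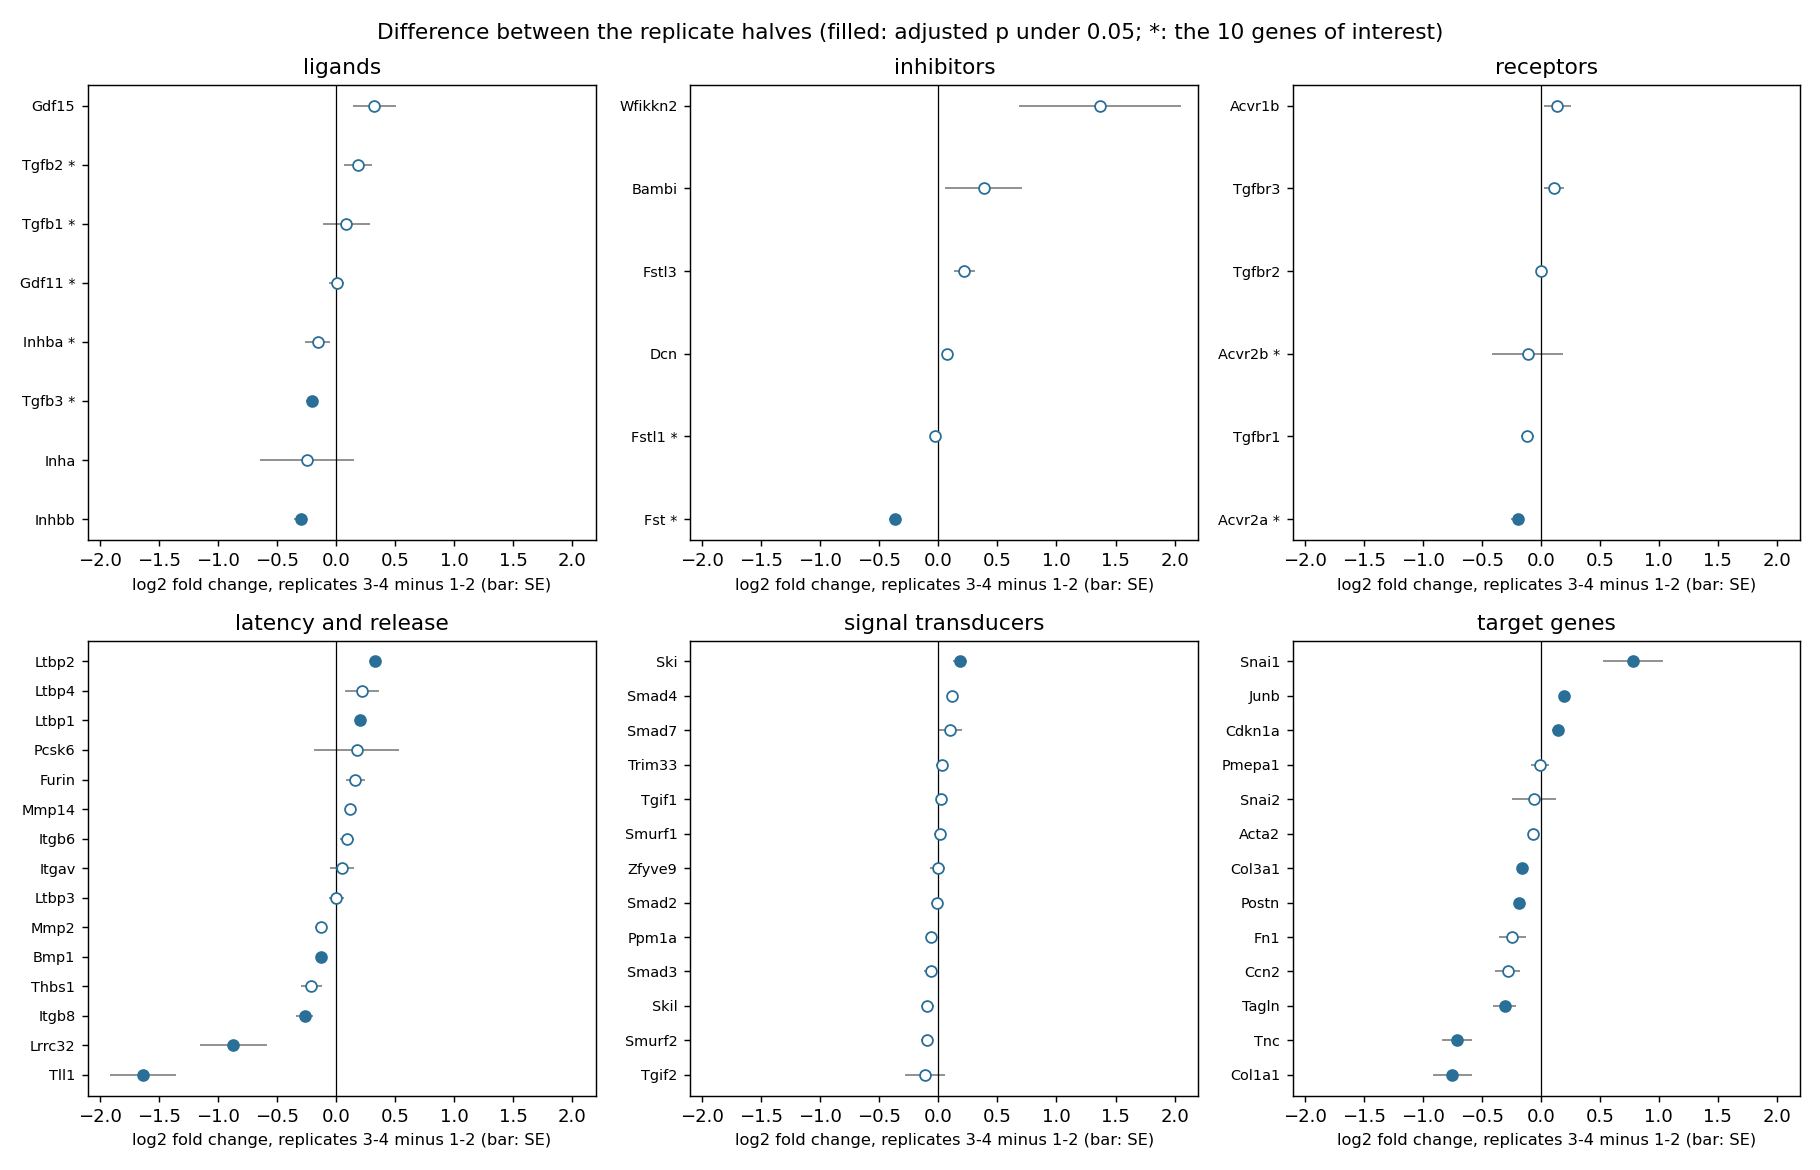
Log2 fold change of replicates 3 and 4 against replicates 1 and 2 (x axis; bars, SE; 10 libraries a side) for each tested pathway gene, one panel for each role; filled points passed an adjusted p-value of 0.05 in edgeR, and asterisks mark the 9 tested genes of the 10. Fst at -0.37 is the lowest inhibitor, and the target genes hold the most filled points. 1 target gene is not drawn.

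Whether a treatment difference itself changed between the replicate sets was tested as an interaction. None of the 9 genes passed, beside 1 of 14605 genes (0.00685%). Inhba had the smallest value, with an unadjusted p of 0.0254 and an edgeR adjusted p of 0.966, where 4.85% of all genes had an unadjusted p under 0.05. Its log2 fold change for agrin against control was -0.15 over all libraries, -0.59 (SE 0.20, edgeR adjusted p = 0.766) within replicates 1 and 2 and 0.38 (SE 0.20, edgeR adjusted p = 0.999) within replicates 3 and 4. The control library at 29.6 CPM belongs to the former and the agrin library at 22.8 CPM to the latter, and without that agrin library the value over all was -0.29 (SE 0.18) and the unadjusted p of the interaction was 0.0692.

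Among 8794 genes with enough signal, the closest in pattern to Fst over the 20 libraries, after the mean of each replicate set was subtracted, were Ndrg4 (Pearson r = 0.748), Tbx15 (0.747) and F2r (0.734). For Inhba they included Med16 (0.826) and Xirp1 (0.782). These are the highest of many correlations over libraries that share treatments and scaling, and they are given as a description. Mstn has no pattern to compare.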

How the data were processed

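The authors deposited raw counts per gene for all 20 libraries, whole numbers with no normalization. Per the labels' protocols, libraries were made from total RNA with a stranded, ribosome-depleting kit and read as pairs. The submitters' processing notes name Trim Galore 0.6.6, cutadapt 2.10, STAR 2.7.6a, HTSeq 0.12.4, DESeq2 1.32.0 and GRCm38. The annotation release and the use of strand are not given in the sources used here. Positions and exon lengths are from GENCODE M21, in which 26667 of the 26722 gene IDs were found.

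The tests used edgeR 4.0.16 under R 4.3.3: filterByExpr (minimum count 10, minimum total 15), which left 14605 genes, TMM scaling and robust quasi-likelihood F-tests, two-sided, with Benjamini-Hochberg adjustment over all genes tested and a threshold of 0.05. Treatment was the only factor; the replicate sets were tested with treatment as a covariate, and the interaction in a fit of treatment by set. Log2 CPM used a prior count of 2. The detection floor is 3 counts and covers counting error only. The code was tested on simulated data. Every pair of replicates differed by more than sampling noise (chi-square of at least 5.17 per gene).

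The genes, the pathway and marker lists, the replicate sets and the tests were chosen with earlier results of these data known. All 10 genes are reported. For treatments, the comparison with the smallest p is named for each gene, and any other with an unadjusted p under 0.05. For the pathway, up to 4 called genes per role with the smallest p are named; Fstl3, Tgfbr1, Tgfbr2, the Smad genes and the lower-ranked called targets were named after their values were seen. Alternatives were DESeq2 1.42.0 (its test, and its size factors in edgeR), no filter or a mean count of at least 10, removal of genes over 1% of counts, fits of only the groups compared, the replicate number or the replicate set as a factor, single sets or treatments, removal of each replicate, and removal of the control library of replicate 2 and the agrin plus 13-3B5xb12 library of replicate 1, which an earlier analysis of these data found to deviate most. Removal of the agrin library of replicate 3 (all treatments, replicate sets, interaction) was added after seeing the data. Of the genes these rules name, 2 are not reported here.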

Additional observations from a re-analysis of the deposited data

Results flagged for a closer look

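In 65 groups of 4 to 10 libraries (the 10 genes by treatment and by replicate set, where values varied), 7 extreme values stood far from the rest of their group by Dixon's 95% limit; chance flags about 1 in 20 groups, or 3.25 here. The groups by treatment and by replicate set share libraries, so the flags are not independent and their number was not tested against 3.25. Mstn reached 0.139 CPM (3 counts) in the control library of replicate 2. It was 0 in the rest of the control and of replicates 1 and 2, which flagged it in both groups. With every other value at 0 any count would be flagged, so both flags were fixed in advance. Inhba stood at 29.6 CPM in the control library of replicate 2, far above the other libraries of replicates 1 and 2. In the agrin library of replicate 3, the one with liver transcripts, Inhba stood at 22.8 CPM and Tgfb3 at 149 CPM, far above the other libraries of replicates 3 and 4. Fstl1 was at 584 CPM in the 13-3B5 library of replicate 3, beside 532 to 536 CPM in the other 3. Acvr2b was at 1.96 CPM in the agrin plus 13-3B5xb12 library of replicate 1, beside 0.698 to 0.861 CPM in the other 3.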

How the results depend on the processing

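None of the 10 genes was called between treatments in any alternative run, with a smallest adjusted p of 0.344 (Fst, with the replicate block); the counts over all genes moved. With no filter on low counts the number called was 50 over all treatments, 4 for agrin against control, 2 for 13-3B5 against control, 7 for 13-3B5 against agrin, 6 for agrin plus 13-3B5xb12 against agrin and 3 against control, 13 for agrin plus 11-3F6xb12 against agrin and 13 against control, 27 for agrin plus 11-3F6xb12 against agrin plus 13-3B5xb12, and 61 for the interaction. With the replicate block it was 2 over all treatments, and for agrin plus 11-3F6xb12 it was 2 against agrin, 3 against control and 5 against agrin plus 13-3B5xb12. With the replicate set as a covariate these 4 numbers were 5, 2, 3 and 10. In replicates 1 and 2 only, 1 gene was called for agrin plus 11-3F6xb12 against agrin and 19 against agrin plus 13-3B5xb12; in replicates 3 and 4 only, 1 against control and 2 against agrin plus 13-3B5xb12. DESeq2 called 2 in the last comparison and 3 for the interaction, which had 4 without the 2 deviating libraries. With no filter, Alb was called for agrin against control, 13-3B5 against agrin and agrin plus 13-3B5xb12 against agrin, together with genes outside the liver list. The counts with no filter were not repeated without the agrin library of replicate 3, which held the liver transcripts. The cause of these shifts was not tested.

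Same-numbered libraries of different treatments deviated together with a mean correlation of 0.195, libraries of the same set with other numbers with 0.201, and libraries of different sets with -0.198. Deviations were taken from the mean of each treatment's 4 libraries, so the negative value follows from the positive ones. Libraries thus shared their set, which the fit by treatment alone leaves out, and sharing a number added no further correlation. Of 32 same-number pairs 26 were over 0.1, and all pairs were in 4 of 8 comparisons, so the numbers were not taken to pair the libraries throughout. The block changed no call for the 10 genes. Between the replicate sets, 388, 162, 193, 260 and 215 genes were called within control, 13-3B5, agrin, agrin plus 13-3B5xb12 and agrin plus 11-3F6xb12, and 1045 to 1306 without 1 replicate number. Fst kept its sign in all 17 alternatives, from -0.51 to -0.28, and Tgfb3 and Acvr2a kept theirs.

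Of the values that turned direction, none was called under the alternative. Against agrin in replicates 1 and 2 only, 13-3B5 gave 0.0275 for Acvr2b and -0.0464 for Tgfb2. Between the replicate sets, Gdf11 was -0.0162 within agrin and -0.10 within agrin plus 11-3F6xb12, Inhba 0.23 within agrin, Tgfb1 -0.68 within agrin plus 11-3F6xb12 and -0.0406 without the agrin library of replicate 3, Tgfb2 -0.0349 within control and -0.30 within agrin plus 13-3B5xb12, Fstl1 0.0671 within 13-3B5, and Acvr2b 0.0829 within 13-3B5, 0.60 within agrin, 0.0396 within agrin plus 11-3F6xb12 and 0.20 without the 2 deviating libraries. Without 1 replicate number, Gdf11 ran from -0.0371 to 0.0502, Tgfb1 from -0.18 to 0.30 and Fstl1 from -0.0751 to 0.00899. Depth limits Mstn, Acvr2b and Tgfb1 most.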
